A study of Mus musculus with 4 samples.

Results

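α cells are the glucagon-secreting endocrine cells of the pancreatic islet. Here they were taken from droplet single-cell RNA-Seq of mouse islets, in which each cell carries a barcode and each captured transcript a tag, the unique molecular identifier (UMI). A barcode was kept if it held at least 500 UMIs, at least 100 genes and at most 10% mitochondrial UMIs. It was called an α cell if glucagon (Gcg) made up at least 2% of its UMIs and lay above somatostatin (Sst) and pancreatic polypeptide (Ppy), and if the insulin genes Ins1 and Ins2 together held under 30%. This rule gave 631 α cells among 7263 kept cells. The cells were chosen on their hormone counts, so the levels of Gcg, Sst, Ppy, Ins1 and Ins2 are descriptions and carry no test.

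The islets came from adult mice labelled Myt3 mutant or control. The mutants are homozygous for the Myt3IM allele, a 12-bp insertion in Myt3 (listed as St18), and are compared with control mice. Each library pooled islets from males and females. Diet and platform are given differently by the sources, as high-fat feeding with inDrop-Seq in the study's methods and as normal feeding with PIPseq in the labels, and both genotypes share whichever applied. The libraries analysed are mutant 1, mutant 2 and control 2, with 8448466, 9013499 and 36985253 UMIs. Expression in control 1 was not analysed here, so control mice are represented by a single library, which also carries a batch label of its own. UMI counts per gene do not show the insertion, and the libraries are called by their labels. No barcode was shared between any pair of the 3 libraries.

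Glucagon is released when blood glucose falls, and also in response to amino acids, and it drives glucose output from the liver. In α cells the convertase Pcsk2 cuts proglucagon to glucagon, whereas β cells use Pcsk1 together with Pcsk2 to make insulin. Transcription factors such as Irx1 and Irx2 belong to the α-cell program in adult mouse islets, and Pax6, Isl1 and Neurod1 are shared among islet endocrine cells.

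The upstream region of Gcg is shown because this gene defines the cells. It covers the 250 bases before the RefSeq start site (GRCm38.p6, minus strand, chr2:62483654-62483903), printed 5′ to 3′. Capitals mark ATTA on either strand, the core of many homeodomain factor sites.

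Gcg upstream: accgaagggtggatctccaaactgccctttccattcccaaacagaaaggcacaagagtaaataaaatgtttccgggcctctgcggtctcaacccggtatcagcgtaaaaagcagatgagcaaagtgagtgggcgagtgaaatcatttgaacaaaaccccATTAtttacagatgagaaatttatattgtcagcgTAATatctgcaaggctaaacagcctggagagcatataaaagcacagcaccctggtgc

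The letters ATTA, searched on both strands, occurred 2 times, beginning 91 and 57 bases before the start site, and were found in 54.9% of 32851 RefSeq upstream regions of the same length. TATAAA, also searched on both strands, occurred 2 times, the nearer one 24 bases before the start, against 12.4% of regions with any match. CANNTG, the E-box, occurred 3 times (66.2% of regions with any match), and TGCTGA, searched on both strands, 0 times (16.1%). These matches describe letters only.

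The glucagon share, which chose the α cells, is given here as a description. The Gcg share of α cells had medians of 17.2% (mutant 1), 18.7% (mutant 2) and 17.8% (control 2). β cells, taken as cells with at least 30% insulin UMIs and under 2% of each other hormone, had medians of 0.206%, 0.256% and 0.0114%. Non-endocrine cells, recognised by endothelial, stromal, leukocyte or duct genes, had 0.209%, 0.239% and 0.0209%. Glucagon transcripts in cells that should lack them were thus at a like level in both cell classes of each mutant library. In control 2 the non-endocrine median lay above the β median, and both were far below those of the mutant libraries. The cells nearest the limit held 2.12%, 2.001% and 2.43% Gcg just inside it and 1.99%, 1.99% and 0.731% just outside it. Between 1% and 2% Gcg lay 120, 96 and 3 kept cells of mutant 1, mutant 2 and control 2, so cells ran on across the limit in the mutant libraries. PP cells, in which Ppy led, reached 8.60%, 7.59% and 9.89% Gcg at most.

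**Figure D1:**
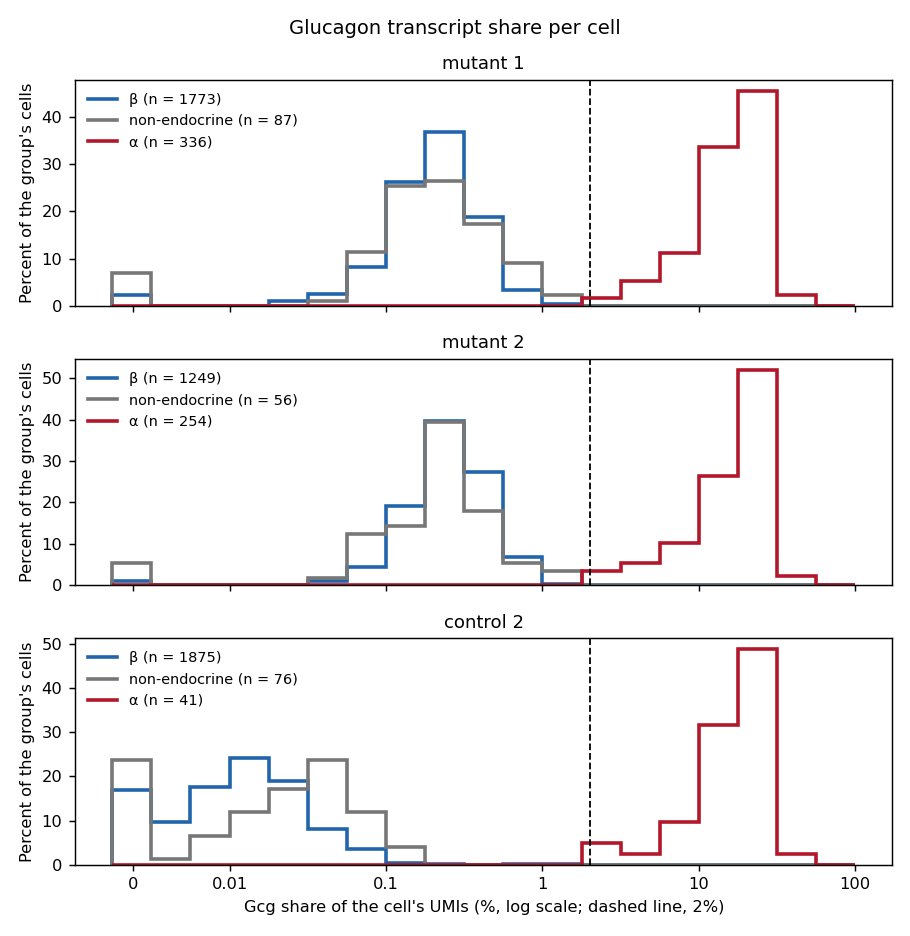
Percent of the cells of each group (y axis) by Gcg share of the cell's UMIs (x axis, percent, log scale, cells with no Gcg UMI in the leftmost bin), with 1 panel per library and the 2% limit dashed. α cells peak above 10% in each library, while β and non-endocrine cells peak between 0.1% and 1% in mutant 1 and mutant 2 and lie further left in control 2.

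Insulin transcripts were present in α cells at the level of cells that do not make insulin. The median Ins1 and Ins2 share of an α cell was 3.81%, 3.64% and 3.80% in mutant 1, mutant 2 and control 2. In non-endocrine cells it was 4.94%, 4.21% and 4.67%, and in β cells 41.9%, 43.8% and 55.9%. Of the α cells, 26 of 336, 27 of 254 and 3 of 41 held at least 10% insulin UMIs. Their median depth was 2622.5 UMIs against 1731.5 for the other α cells in mutant 1, but 1154 against 2866 in mutant 2 and 3176 against 6391.5 in control 2. Cells with at least 2% Gcg that the rule turned away numbered 16, 7 and 5 for insulin and 12, 5 and 3 for another hormone above Gcg.

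α cells made up 11.4% of kept cells in mutant 1 (336 of 2940, exact binomial 95% interval 10.3% to 12.6%), 12.5% in mutant 2 (254 of 2040, 11.0% to 14.0%) and 1.80% in control 2 (41 of 2283, 1.29% to 2.43%). Of the cells called α, β, δ or PP, they were 14.8%, 15.6% and 2.07%. Both mutant libraries lay above control 2, and the gap between them was within their intervals, which cover counting error only. No genotype test is possible against a single control library, and genotype and batch cannot be told apart. α cells were shallower than β cells in each library, with medians of 1745, 2795.5 and 6311 UMIs against 3174, 5077 and 17216. Their median mitochondrial share was 1.11%, 1.03% and 1.23%.

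Genes that the rule did not use were compared by summing UMIs per library and cell group. δ and PP cells were taken like α cells, with at least 2% Sst or Ppy as the leading hormone. α, β, δ and PP cells of the 3 libraries gave 12 sums, which were fitted in edgeR with library as a block and with the 5 hormone genes removed. Levels are CPM, the UMI count of a gene scaled to a common total of the remaining UMIs (TMM). Differences are on the log2 scale with their standard error, and a gene is called at a Benjamini-Hochberg adjusted p under 0.05 over the 4965 genes tested. Because the 3 comparisons share the α sums, their calls are not independent.

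The α-cell label held for most of its tested markers. Of 15 listed α markers besides Gcg, 8 passed the filter on low counts, and 6 of these were higher in α than in β cells and 0 lower, while 19.8% of all genes tested were higher and 21.3% lower (41.2% in either direction). Without control 2 the counts were 10 higher and 1 lower of 11 tested. The median difference of the 8 was 2.86, against -0.03 over all genes tested. Against δ cells 6 of 8 were higher, with 7.65% of all genes higher and 7.53% lower (15.2% in either direction), and against PP cells 5 of 8, with 1.69% higher and 1.29% lower (2.98% in either direction).

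Transthyretin (Ttr), a carrier of thyroid hormone and retinol-binding protein, was the most abundant marker, at 12027, 15045 and 16241 CPM in α cells of mutant 1, mutant 2 and control 2 and 1351, 1528 and 5494 CPM in β cells. Every α sum lay above every β sum, but the β sum of control 2 was more than 3 times those of the mutant libraries. The difference was 2.56 ± 0.32 (adjusted p = 6.71e-07, edgeR). Slc7a2, which carries arginine and lysine into the cell, was at 351, 528 and 547 CPM in α cells and 120, 156 and 100 CPM in β cells, a difference of 1.90 ± 0.18 (adjusted p = 3.82e-09, edgeR). Irx2, a homeodomain factor, was at 140, 109 and 107 CPM against 9.09, 11.7 and 2.12 CPM in β cells. The groups did not overlap for either gene.

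Gc, the vitamin D-binding protein, did not follow the label. Its level was 95.5, 102 and 160 CPM in α cells and 45.1, 54.2 and 412 CPM in β cells of mutant 1, mutant 2 and control 2. It was higher in α cells of both mutant libraries and lower in α than in β cells of control 2, so the difference of 0.16 ± 0.31 missed the threshold (adjusted p = 0.71, edgeR). Without control 2 it was 0.995 and was called (adjusted p = 1.25e-05, edgeR), and without mutant 1 or mutant 2 it was -0.23 or -0.20 and was not called. Peg3 also was not called. Irx1 fell below the filter on low counts, with 25, 29 and 8 UMIs in the α sums against 11, 9 and 4 in the far deeper β sums.

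At an equal total of 1000 UMIs per cell, Ttr was seen in 94.7%, 93.2% and 97.6% of α cells, in 41.2%, 46.6% and 74.4% of β cells and in 16.3%, 25.5% and 31.6% of non-endocrine cells. This total includes hormone UMIs, and insulin alone held a median of 41.9%, 43.8% and 55.9% of β-cell UMIs. Fewer UMIs of other genes were thus left in β cells, and only the total was matched. Irx2 was seen in 7.77%, 7.17% and 4.88% of α cells and 0.538%, 0.661% and 0% of β cells, with 0 of 1875 β cells in control 2 (exact binomial 95% upper bound 0.197%). That bound concerns cells with a UMI at this depth and not expression, since β cells of control 2 held 26 Irx2 UMIs before thinning. Shallower cells were left out here, 53 and 17 α cells in mutant 1 and mutant 2 and none in control 2.

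**Figure D2:**
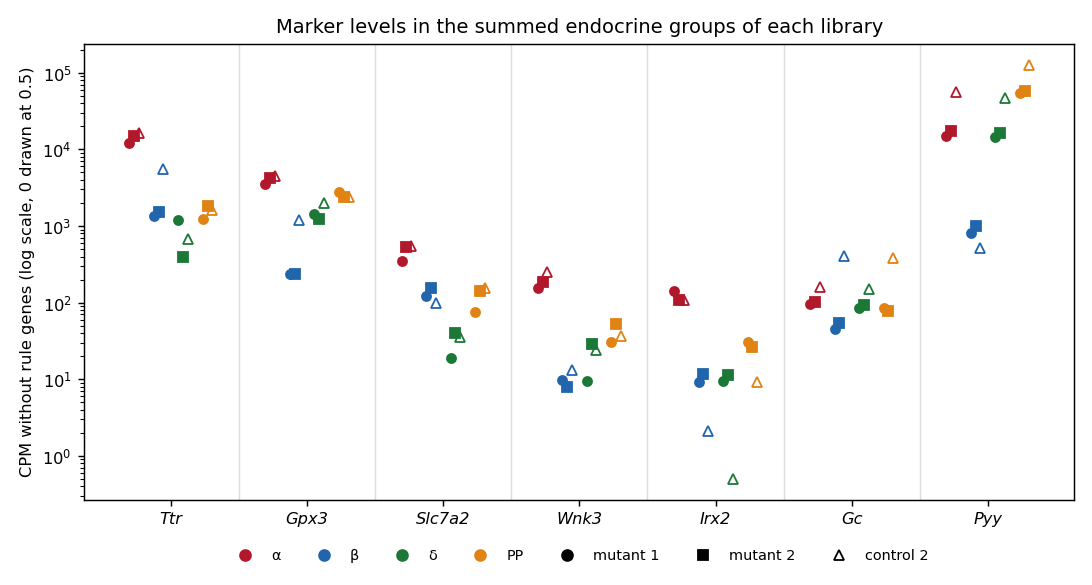
Level of 6 α markers and Pyy (y axis, CPM without the hormone genes used by the rule, log scale, 0 drawn at 0.5) in the summed α, β, δ and PP cells of each library, 1 point per library. Ttr, Gpx3, Slc7a2, Wnk3 and Irx2 lie highest in α cells, Gc in β cells of control 2 exceeds every α sum, and Pyy is high in α, δ and PP cells.

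α and β cells differed in 985 genes higher in α cells and 1060 lower. Ranked by size among genes of at least 50 CPM with one sign in all 3 libraries, the highest was Edn3, the secreted peptide endothelin 3. Edn3 was at 171, 159 and 143 CPM in α cells of mutant 1, mutant 2 and control 2 and at 2.45, 2.21 and 2.28 CPM in β cells. The 3 libraries gave nearly the same gap, 6.06 ± 0.31 (adjusted p = 1.33e-13, edgeR), and non-endocrine cells held 0 Edn3 UMIs.

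The other genes near the top had varied roles. Kcnk3, a leak potassium channel, was at 169, 213 and 172 CPM in α cells and 9.79, 9.14 and 1.47 CPM in β cells (5.04 ± 0.34, adjusted p = 1.6e-11, edgeR). Cacng4, an auxiliary subunit of AMPA glutamate receptors, was at 260, 203 and 59.4 CPM against 11.5, 11.0 and 1.39 CPM (4.60 ± 0.30). Ndst4, which modifies heparan sulfate, was at 438, 405 and 469 CPM against 17.8, 13.2 and 9.53 CPM (5.08 ± 0.21). Adamts18, a secreted metalloprotease, differed by 5.25 ± 0.26. Higd1a, a mitochondrial protein induced by low oxygen, differed by 5.55 ± 0.55, Slc25a33, a mitochondrial carrier of pyrimidine nucleotides, by 5.19 ± 0.50, Eef1a2, a translation elongation factor, by 5.15 ± 0.43, and Samd5 by 5.08 ± 0.54. All α sums were above all β sums for these genes, a separation that ranking by size with one sign per library favours.

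Peptide YY (Pyy), a gut and islet peptide of the family of pancreatic polypeptide, differed by 4.84 ± 0.34 (adjusted p = 3.94e-11, edgeR). It reached 15156, 17428 and 56216 CPM in α cells and 822, 1008 and 517 CPM in β cells. Peptide YY was seen in 84.8%, 86.1% and 100% of α cells at 1000 UMIs, against 28.9%, 29.5% and 8.59% of β cells and 16.3%, 25.5% and 17.1% of non-endocrine cells. Among these 6 sums, the α cells of control 2 held the highest level and the β cells of control 2 the lowest.

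**Figure D3:**
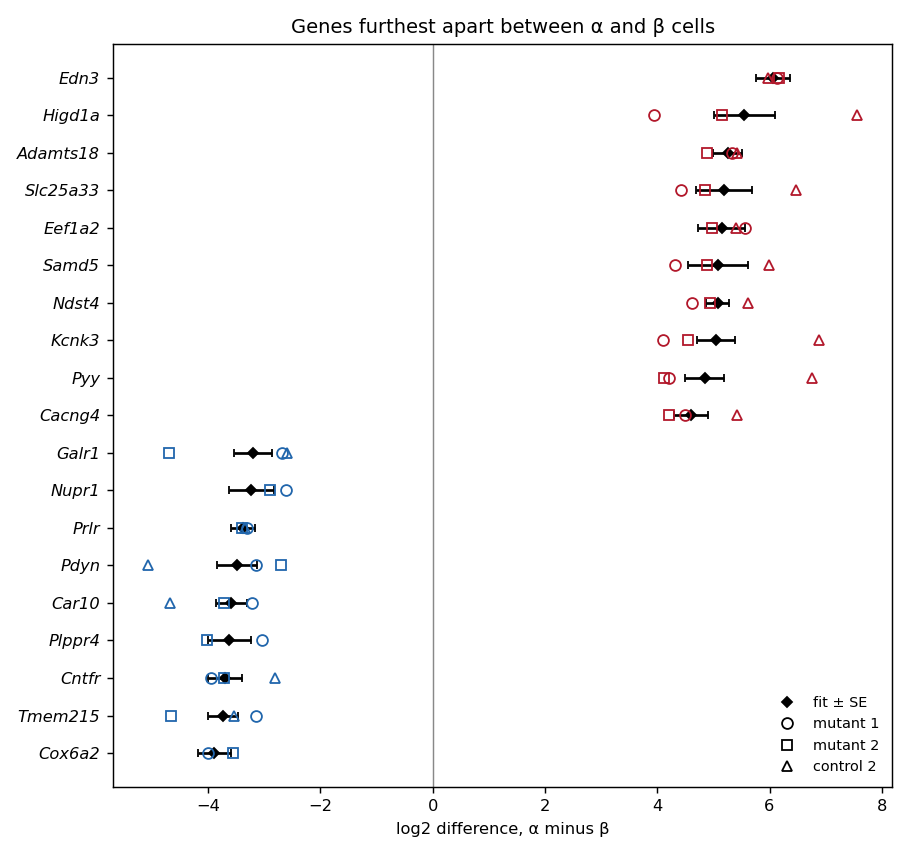
Difference between α and β cells (x axis, log2, α minus β) for 10 of the highest and 9 of the lowest genes under the naming rule (y axis), with the fit and its standard error in black and 1 open symbol per library. A library with 0 UMIs in its α sum is not drawn (Cox6a2, Plppr4 and Nupr1 in control 2). The naming rule required one sign in all 3 libraries, so the drawn library values fall on the same side of 0 as the fit by choice of genes. The fit runs from 4.60 to 6.06 for the higher and from -3.89 to -3.20 for the lower genes.

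The genes lowest in α cells were picked for their difference from β cells, so their low α level is a description. Cox6a2, a subunit isoform of cytochrome c oxidase, was at 11.1, 15.4 and 0 CPM in α cells and 178, 181 and 97.8 CPM in β cells (-3.89 ± 0.30, adjusted p = 1.21e-10, edgeR). Prlr, the prolactin receptor, was at 53.3, 49.9 and 47.5 CPM against 527, 526 and 485 CPM (-3.37 ± 0.21, adjusted p = 5.18e-12, edgeR). Pdyn, which encodes the opioid precursor prodynorphin, was at 8.88, 13.4 and 11.9 CPM against 78.7, 86.9 and 398 CPM. Tmem215, Cntfr (the receptor for ciliary neurotrophic factor), Plppr4, Car10, Nupr1 (a stress-induced nuclear protein) and Galr1 (a galanin receptor) differed by -3.74 to -3.20. Over these 9 genes and 3 libraries, the α level was 0 to 17.7% of the β level, with a median of 9.06%, hormone UMIs left out. The non-endocrine level of the same genes was 0 to 35.8% of the β level, with a median of 7.94%, close to the α median. Whether either cell class expresses these genes itself was not tested.

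Of 17 tested β identity genes (18 listed), 15 were lower in α cells and 0 higher, beside 21.3% and 19.8% of all genes. Their median difference was -2.83, against -0.03 over all genes. Iapp (amylin) made up 1.96%, 1.55% and 0.912% of all UMIs in α cells, 8.34%, 7.42% and 4.15% in β cells and 2.60%, 1.49% and 0.832% in non-endocrine cells. Mafa, the factor of mature β cells, as a share of all UMIs stood at 17.9%, 19.2% and 15.5% of its β share in α cells and 35.5%, 14.9% and 22.3% in non-endocrine cells. Slc30a8, the granule zinc transporter, was an exception. Its level was 433, 622 and 695 CPM in α cells and 592, 696 and 553 CPM in β cells (-0.10 ± 0.17, adjusted p = 0.667, edgeR), while non-endocrine cells held 9, 15 and 13 UMIs of it. Without control 2 the difference was -0.27 and was called (adjusted p = 0.005, edgeR), and without mutant 1 it was 0.087.

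Among 14 tested transcription factors of 20 listed, 6 were higher in α than in β cells (among them Irx2, Prox1, Rfx3 and Meis2) and 3 lower (Insm1, Neurod1 and Pax6), beside 19.8% and 21.3% of all genes. Without control 2 they were 9 and 4 of 17 tested, and without either mutant library 6 and 1 of 14. Neurod1 was not called without mutant 1 or mutant 2 (adjusted p = 0.171 and 0.0764, edgeR), nor was Pax6 (adjusted p = 0.0735 and 0.0687), nor either with no replicate block, when Rfx3 and Meis2 lost their calls too. Pax6 was expressed in both, at 273, 307 and 250 CPM in α cells and 417, 459 and 381 CPM in β cells (-0.58 ± 0.16, adjusted p = 0.0043, edgeR). Insm1, a zinc-finger factor of endocrine differentiation, differed by -1.45 ± 0.19.

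The granule list of 20 genes, 19 of them tested, split with 5 higher and 8 lower in α cells, beside 19.8% and 21.3% of all genes. With 1 library left out, 2 to 7 were higher and 5 to 9 lower. Pcsk2, the glucagon-producing convertase, was at 4431, 4938 and 6317 CPM in α cells and 3713, 3809 and 4437 CPM in β cells. This was a small difference of 0.38 ± 0.13 (adjusted p = 0.0205, edgeR), not called without mutant 1 or mutant 2 (adjusted p = 0.106 and 0.21). Its chaperone Scg5 (0.53 ± 0.18) was also higher and was also not called without either, while Resp18 (1.57 ± 0.14) and Ptprn2 (0.84 ± 0.14) were higher. Pcsk1 was at 26.7, 24.9 and 41.6 CPM in α cells against 232, 231 and 388 CPM in β cells, a difference of -3.19 ± 0.22 (adjusted p = 2.09e-11, edgeR). Its α level was 12.4%, 11.5% and 10.8% of the β level, beside 12.1%, 13.1% and 7.64% in non-endocrine cells, hormone UMIs left out. Over all UMIs these were 16.9%, 16.0% and 19.0% beside 19.7%, 22.9% and 17.3%. The granins were lower, with differences of -2.41 ± 0.16 for Scg2, -0.96 ± 0.22 for Chgb and -0.54 ± 0.14 for Chga, the last not called without mutant 1 or mutant 2 (adjusted p = 0.101 and 0.11). Chga was among the most abundant transcripts of α cells, at 12820, 11144 and 7933 CPM.

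Amino acid and nutrient genes gave 3 higher and 3 lower of 10 tested (18 listed), beside 19.8% and 21.3% of all genes, and 4 and 5 of 14 tested without control 2. Slc7a2 and Slc7a8 (a carrier of neutral amino acids, 0.82 ± 0.20) were higher with Rptor, and Slc7a5, Slc7a14 and Slc38a4 were lower. Rptor and Slc38a4 were not called without mutant 1 or mutant 2, nor Slc7a14 without mutant 2. Slc38a5, the glutamine transporter of α cells, was not tested, with 51, 69 and 9 UMIs in the α sums against 19, 10 and 62 in the β sums. For the glucose list, 6 of 9 tested genes (20 listed) were lower and 0 higher, beside 21.3% and 19.8% of all genes. Aldoa, an enzyme of glycolysis, was among the 6 and was not called without mutant 1 or mutant 2. Slc2a2, the glucose transporter of β cells, was at 35.5, 53.7 and 11.9 CPM in α cells and 385, 393 and 165 CPM in β cells (-3.19 ± 0.23), and G6pc2, the islet glucose-6-phosphatase subunit, differed by -2.93 ± 0.18.

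Of 8 tested receptors (20 listed), 2 were higher and 6 lower in α cells, beside 19.8% and 21.3% of all genes. Of the 6, Sstr3 was not called without mutant 1 and Gipr not without mutant 2. Ffar4, a receptor for long-chain fatty acids, was at 84.4, 86.4 and 17.8 CPM in α cells and 10.5, 10.4 and 1.63 CPM in β cells (3.17 ± 0.36, adjusted p = 1.12e-07, edgeR). The insulin receptor Insr was higher by 0.66 ± 0.22, a call lost without mutant 1 or mutant 2. Glp1r, the receptor for the incretin GLP1, differed by -2.53 ± 0.18, with an α level of 22.4%, 16.1% and 14.9% of the β level beside 27.0%, 16.7% and 10.3% in non-endocrine cells. Over all UMIs these were 30.4%, 22.3% and 26.3% beside 43.8%, 29.3% and 23.3%. Adra2a, an adrenergic receptor, differed by -2.95 ± 0.22. The glucagon receptor Gcgr had 5, 4 and 1 UMIs in the α sums. Among 14 tested ion channel genes (20 listed), 4 were higher (Kcnk3, Gria3, Gria2 and Scn3a) and 1 lower (Kcnk16), beside the same 19.8% and 21.3%, though Scn3a and Kcnk16 were not called without mutant 2. Without control 2 there were 5 higher and 5 lower of 16 tested. Gria2 and Gria3, which form AMPA glutamate receptors, differed by 3.17 ± 0.18 and 3.54 ± 0.26. Gria2 was at 478, 516 and 517 CPM in α cells and 38.8, 51.7 and 84.0 CPM in β cells.

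The Myt genes, zinc-finger factors that include the mutated Myt3, were found in α cells above their level in non-endocrine cells, which was 2.88% to 41.5% of the α level over the 3 genes and 3 libraries and rested on 1 to 8 UMIs each. St18 (Myt3) was at 153, 159 and 244 CPM in α cells and 181, 216 and 224 CPM in β cells, a difference of -0.21 ± 0.17 that missed the threshold (adjusted p = 0.329, edgeR). It was called lower without control 2 (-0.34, adjusted p = 0.0354, edgeR) and with cells thinned to 1000 UMIs (-0.66, adjusted p = 0.0462). Against δ cells, at 264, 236 and 328 CPM, it was lower by -0.61 ± 0.20 (adjusted p = 0.0402, edgeR), a call lost without any 1 of the 3 libraries and with no replicate block. Myt1l (Myt2) was higher in α than in β cells, at 318, 328 and 208 CPM against 243, 200 and 155 CPM (0.54 ± 0.16, adjusted p = 0.0102, edgeR), but not without mutant 1 or mutant 2 (adjusted p = 0.0529 and 0.24). Myt1 was at 73.3, 84.4 and 77.3 CPM in α cells and 68.2, 73.4 and 53.7 CPM in β cells and was not called.

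Genes of the endoplasmic reticulum were lower in α than in β cells almost throughout their list. Of 24 tested genes for folding and export in the endoplasmic reticulum (25 listed), 23 were lower in α cells and 0 higher, beside 21.3% and 19.8% of all genes. Their median was -1.20, against -0.03 over all genes. Hspa5, the chaperone BiP, was at 1026, 1044 and 1367 CPM in α cells and 1921, 1985 and 4860 CPM in β cells (-1.25 ± 0.17, adjusted p = 3.27e-06, edgeR). Manf, a secreted protein of the stressed endoplasmic reticulum, was at 871, 689 and 386 CPM against 2558, 2211 and 1742 CPM (-1.80 ± 0.16), and Sdf2l1 differed by -2.89 ± 0.31. The α level of Hspa5 was 57.9%, 56.2% and 28.3% of the β level, close to the 46.9%, 56.0% and 25.5% of non-endocrine cells. Against δ cells 2 of the 24 were lower, beside 7.53% of all genes, and against PP cells 3, beside 1.29%. Against PP cells the count was 0 without mutant 1, without mutant 2 or with no replicate block, and 8 without control 2. Against δ cells it was 0 to 4 with 1 library left out.

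Of 8 tested integrated stress response genes (18 listed), 7 were lower in α than in β cells and 0 higher, beside 21.3% and 19.8% of all genes. The count was 5 of 10 without mutant 1, 4 of 9 without mutant 2, 10 of 12 without control 2 and 3 of 8 with no replicate block. Atf5, a stress-induced transcription factor, was at 289, 157 and 71.3 CPM against 1481, 1328 and 437 CPM (-2.69 ± 0.17, adjusted p = 4.06e-12, edgeR). Asns, which makes asparagine, differed by -1.71 ± 0.18, and Atf4, the factor at the centre of this response, by -0.55 ± 0.19. Atf4, Aars and Cebpb were not called without mutant 1 or mutant 2. Against δ cells 1 of the 8 was higher (Ddit3) and 0 lower, beside 7.65% and 7.53% of all genes. The metallothioneins Mt1 and Mt2, which bind zinc and copper, were lower by -1.42 ± 0.26 and -1.56 ± 0.23 in a list of 14 tested genes with 3 higher and 3 lower (16 listed), shares near those of all genes, and with 6 and 5 of 15 without control 2. The Mt1 level was 275, 292 and 196 CPM in α cells and 943, 1058 and 215 CPM in β cells, so the gap lay mainly in the mutant libraries, and neither gene was called with no replicate block.

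Immediate early genes were higher in α cells, 12 of 14 tested (20 listed) against β cells and 7 of 14 against δ cells, with 0 lower in either, beside 19.8% and 7.65% of all genes higher. Against δ cells 4 to 13 were higher with 1 library left out, the 13 of 16 tested without control 2, and 4 with no replicate block. Klf4 was at 151, 203 and 155 CPM in α cells and 13.3, 19.5 and 28.9 CPM in β cells (3.10 ± 0.22, adjusted p = 5e-11, edgeR). Atf3, a stress-responsive factor, was at 549, 720 and 695 CPM against 115, 142 and 99.2 CPM (2.46 ± 0.23). Non-endocrine cells also held Klf4, at 150, 252 and 231 CPM without TMM scaling. Of 15 tested heat shock genes (16 listed), 4 were higher (Bag3, Dnaja1, Hsph1 and Hspa8, by 0.43 to 0.69) and 0 lower, beside 19.8% and 21.3% of all genes, and none of the 4 was called without mutant 1 or without mutant 2. Of 83 tested ribosomal protein genes (86 listed), 71 were higher in α than in β cells, with a median of 0.79, and 48 were higher than in δ cells, with a median of 0.56, beside 19.8% and 7.65% of all genes. Against PP cells 2 of the 83 were higher, near the 1.69% of all genes. With 1 library left out, 50 to 77 were higher than in β cells and 9 to 46 than in δ cells, and with no replicate block 10 and 1. Ribosomal protein genes have near-identical copies elsewhere in the genome, and how the authors' counting split such reads is not given in the sources used here.

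**Figure D4:**
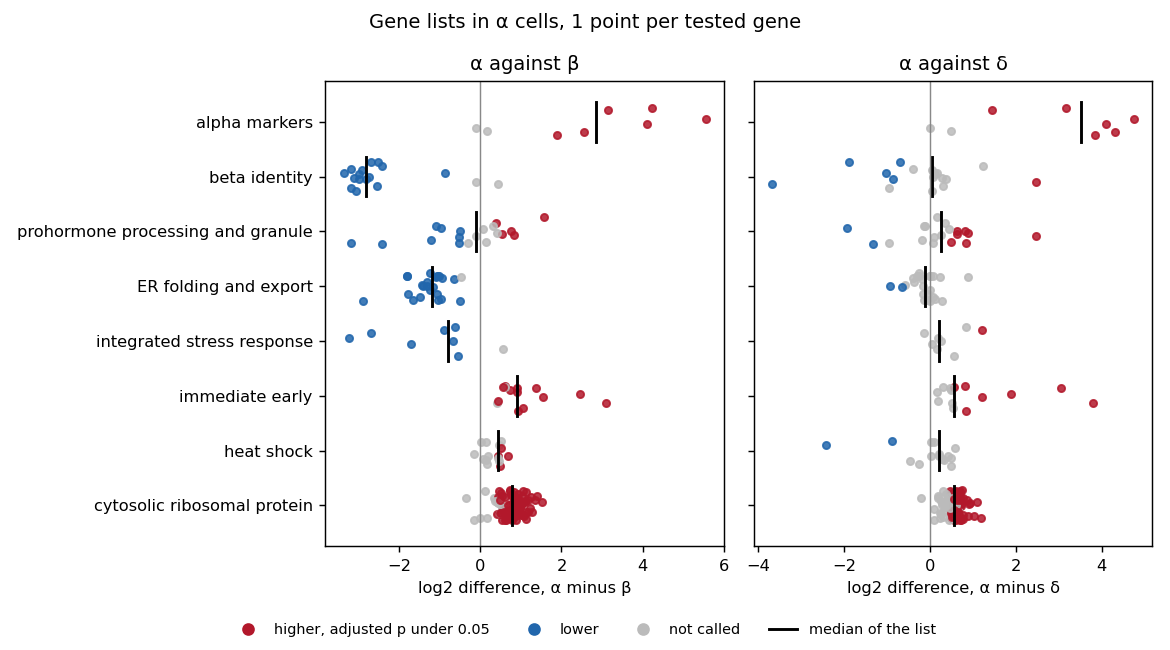
Difference of α cells from β cells (left) and from δ cells (right) on the log2 scale (x axis) for 8 gene lists (y axis), 1 point per tested gene coloured by its call, with the median of each list as a bar. Endoplasmic reticulum and integrated stress response genes lie to the left of 0 against β cells and around 0 against δ cells, while immediate early and ribosomal protein genes lie to the right in both.

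α cells differed from δ cells in 380 genes higher and 374 lower, and from PP cells in 84 higher and 64 lower. Among the highest against δ cells were Igsf21, Rhou, Tmsb15b2 and Lpl. Tmsb15b2, a thymosin, was at 640, 781 and 660 CPM in α cells and 28.2, 34.5 and 0 CPM in δ cells (5.17 ± 0.58, adjusted p = 4.68e-07, edgeR). Lpl, lipoprotein lipase, was at 515, 652 and 559 CPM against 28.2, 28.7 and 0 CPM (5.12 ± 0.90, adjusted p = 0.000178, edgeR). Igsf21 had 159 UMIs in the α sums and 1 in the δ sums, a ratio of 58.3 with a counting interval of 10.3 to 2318, and Rhou, a small GTPase, had 89 and 1.

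Lowest against δ cells were Trabd2b, Hhex, Nnat, Ly6h and Kcnc2. Hhex, the homeodomain factor of δ cells, was at 6.66, 3.84 and 0 CPM in α cells and 132, 132 and 197 CPM in δ cells (-5.28 ± 0.70, adjusted p = 5.04e-06, edgeR). Nnat, neuronatin, was at 22.2, 15.4 and 0 CPM against 480, 385 and 257 CPM (-4.88 ± 0.41). Kcnc2, a voltage-gated potassium channel, differed by -4.36 ± 0.45. Trabd2b had 1 UMI in the α sums and 29 in the δ sums and was not called without mutant 2. All 4 tested δ markers of 8 listed (among them Hhex, Rbp4 and Efna5) were lower in α cells, beside 7.53% of all genes.

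PP cells were the nearest neighbours of α cells by number of genes called, but they were also the fewest, at 138 cells. Ttr was at 1235, 1817 and 1625 CPM in PP cells, below every α sum (3.21 ± 0.34, adjusted p = 1.15e-06, edgeR). Pcp4l1, related to the calmodulin-binding protein Pcp4, and Samd5 had 169 and 69 UMIs in the α sums and 0 in the PP sums. With the limit of 3 counts over the PP sums, these levels were at least 18.1-fold and 7.37-fold higher. Higd1a was also higher, at 75.5, 90.2 and 184 CPM in α cells against 0, 17.5 and 18.2 CPM, with the call lost without mutant 1 or mutant 2, as it was for Samd5 and Irx2.

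Tspan8, a tetraspanin, was lowest against PP cells, at 53.3, 65.2 and 23.8 CPM in α cells and 1014, 961 and 844 CPM in PP cells (-4.30 ± 0.27, adjusted p = 9.18e-11, edgeR). Chrm3, a muscarinic acetylcholine receptor, differed by -2.83 ± 0.28, Ccn1, a matrix protein, by -2.89 ± 0.61, Limch1 by -2.81 ± 0.33 and Mdga2 by -2.71 ± 0.47. Ccn1 was not called without mutant 1 or mutant 2, nor Mdga2 without mutant 2. Peptide YY was at 54106, 57995 and 127520 CPM in PP cells, above α cells of the same library (-1.55 ± 0.30, adjusted p = 0.00277, edgeR), though not called without mutant 1 or mutant 2 (adjusted p = 0.0619 and 0.0943). In δ cells it was at 14542, 16134 and 46231 CPM, and the difference of 0.17 ± 0.29 was not called. In each of the α, δ and PP groups the sum of control 2 was the highest.

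Transcripts listed as markers of other cell types were also found in α cells. The 10 endothelial markers summed to 129, 124 and 695 CPM (without TMM scaling) in α cells and 13941, 16910 and 16687 in non-endocrine cells. In control 2 the most abundant was Flt1, an endothelial receptor, and 49 of its 51 UMIs came from 1 α cell, as did 19 of 22 UMIs of Plvap from the cell highest in it. In mutant 1 and mutant 2 the most abundant was Cdh5. The 12 macrophage and leukocyte markers summed to 148, 158 and 90.6 CPM, led by C1qa, and the 15 acinar markers found in the files to 120, 64.7 and 211. The duct list summed to 742, 792 and 1304 in α cells, led by Krt18, which β cells also held, and to 733, 674 and 967 in β cells. In non-endocrine cells it summed to 3020, 218 and 1245. That group mixes cell types, and in mutant 2 it held 26 duct UMIs beside 2017 endothelial UMIs, so it gives no level of duct cells. The duct list members Spp1 and Krt8 were called higher in α than in β cells (1.83 ± 0.35 and 0.77 ± 0.17). Spp1 had 65 UMIs in α cells of control 2, of which 27 came from 1 cell. The part of these transcripts in other results was not tested.

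α cells of the mutant libraries were set beside those of control 2 by size alone, since 1 control library allows no test. Levels are CPM scaled over the 3 α sums, and a gene was counted if both mutant libraries differed from control 2 by over 1 on the log2 scale in one direction. At a mean level of 50 CPM or more there were 3836 genes, of which 267 (6.96%) were higher and 149 (3.88%) lower in both mutant libraries, and 33 differed by as much between the mutant libraries. With cells thinned to 1000 UMIs, 885 of 3916 genes were higher and 161 lower. The median over all genes was 0.17 and 0.12, so changes are read against that. In β cells 5.22% of genes were higher and 13.3% lower. Among the 3177 genes at this level in both cell types, 74 of the 228 higher in α cells and of the 158 higher in β cells were the same, and 103 of the 116 lower in α cells and of the 391 lower in β cells. The α and β comparisons share libraries, and 0 genes passed in opposite directions.

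Ribosomal protein genes were frequent in the lower set. In both mutant libraries 35 of 83 were lower and 0 higher, beside 3.88% and 6.96% of all genes, with medians of -0.85 and -0.72. In β cells 58 of 83 were lower, beside 13.3% of all genes. The study reports genes of cytosolic ribosome translation as upregulated in mutant β cells, the opposite direction, and the cause of this difference was not tested. Rps18 was at 58.5, 109 and 686 CPM in α cells of mutant 1, mutant 2 and control 2, with a Poisson interval of 577 to 808 in control 2, and its ratios were -3.50 and -2.63. The other named ribosomal genes (Rpl21, Rpl7a, Rpl23a, Rps28, Rps7 and Rpl35a) had ratios between -3.34 and -2.16. mt-Co2, a mitochondrial subunit of cytochrome c oxidase, was at 224, 338 and 1820 CPM. β cells moved alike, with ratios of -2.72 and -2.73 for mt-Co2. Depth differed in the same order, since the median α cell had 1745, 2795.5 and 6311 UMIs, and the part of depth in these ratios was not tested.

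Of the genes higher in both mutant libraries, Mafa was at 389, 367 and 48.3 CPM (Poisson interval 23.2 to 88.8 in control 2), with ratios of 2.95 and 2.87. β cells of the same libraries had 2797, 2526 and 605 CPM, and the α percentages of the β share, given above, lay within the range of those of non-endocrine cells. The study, with duplicate assays of each genotype, reports Mafa as downregulated in mutant β cells. The β levels under the labels used here run in the opposite direction, and the cause was not tested. Ppp1r1a, a phosphatase inhibitor, was at 268, 185 and 29.0 CPM, and Tacr3, the neurokinin B receptor, at 184, 160 and 33.8 CPM. Pja1 (a ubiquitin ligase), Ryr3 (a calcium release channel), Papss2 (which makes the sulfate donor) and Enpp6 (a choline phosphodiesterase) had ratios between 2.18 and 2.43. These ratios rest on 6 to 12 UMIs in control 2.

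By list, 6 of 11 β identity genes at this level were higher in α cells of both mutant libraries (Mafa, Papss2, Nkx6-1, Glp1r, Ero1b and Igf1r) and 0 lower, beside 6.96% and 3.88% of all genes. The medians were 1.29 and 1.03 over these 11 genes in α cells. In β cells of the same libraries, where 17 genes of the list were at this level, they were 0.89 and 0.73. Of these 17 genes, 5 were higher, Mafa and Slc2a2 among them, and 0 lower, beside 5.22% and 13.3% of all genes. The study reports both Mafa and Slc2a2 as downregulated in mutant β cells. For Nkx6-1, a β-cell homeodomain factor, the α share of all UMIs was 21.3%, 17.2% and 18.5% of the β share, and the non-endocrine share was 29.3%, 12.4% and 14.1%. Of 14 heat shock genes 5 were higher and 1 lower (Hspa1b). Dnajb1, a co-chaperone of Hsp70, was at 5113, 4324 and 1207 CPM, with ratios of 2.08 and 1.84, beside 3.14 and 3.01 in β cells. Of 5 receptors 3 were higher, Ffar4 at 76.7, 76.4 and 14.5 CPM, Gipr, the receptor for the incretin GIP, at 135, 84.9 and 33.8 CPM, and Glp1r, but the values of control 2 rest on 3, 7 and 12 UMIs. Slc38a5 was higher at 103, 117 and 43.4 CPM and Slc7a8 lower at 153, 177 and 377 CPM. Atf5 and Asns were higher and Atf4 lower, at 70.6, 98.5 and 237 CPM.

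Of 9 α markers at this level, 1 was higher in both mutant libraries (Slc38a5) and 0 lower, which is near the share of all genes. Of 14 transcription factors, 18 granule genes and 14 ion channels, 0 passed in both mutant libraries. Ttr was at 10923, 13311 and 13194 CPM, with ratios of -0.27 and 0.01, whereas in β cells its ratios were -2.19 and -2.03. Gc had ratios of -0.58 and -0.52 in α cells and -3.35 and -3.10 in β cells. St18 was at 139, 141 and 198 CPM (Poisson interval 142 to 269 in control 2), with ratios of -0.50 and -0.48 in α cells and -0.47 and -0.24 in β cells. Peptide YY, abundant in α cells, did pass, at 13765, 15420 and 45670 CPM in α cells, with ratios of -1.73 and -1.57 and a gap of 0.16 between the mutant libraries. All 41 α cells of control 2 held Pyy UMIs, and without the 3 highest cells 7070 of its 9460 UMIs remained. The Pyy levels of δ and PP cells, given above, were likewise highest in control 2. Ppy, a gene of the rule, made up 0.652%, 0.754% and 1.59% of UMIs in the α sums.

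**Figure D5:**
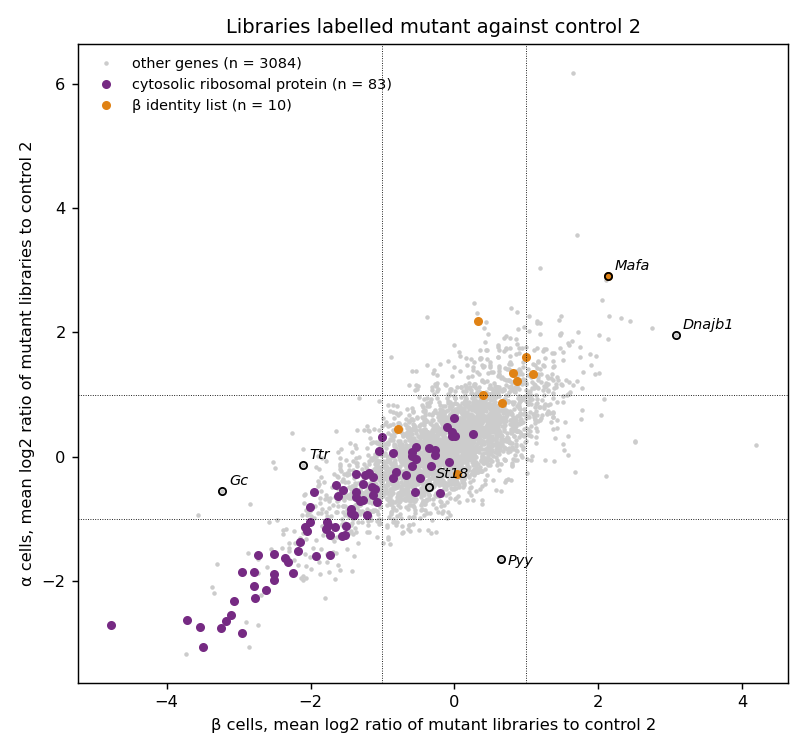
Mean log2 ratio of the mutant libraries to control 2 in β cells (x axis) and α cells (y axis), 1 point per gene with at least 50 CPM in both, ribosomal protein genes in purple, β identity genes in orange and dotted lines at 1 and -1. Ribosomal protein genes run to the lower left, Mafa and Dnajb1 lie at the upper right, Ttr and Gc lie left of the other genes at their α ratio, and Pyy lies below -1 in α cells and above 0 in β cells.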

How the data were processed

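Per the study's methods the authors preprocessed reads with DropEst. Each deposited matrix holds raw UMI counts (whole numbers, one value for a gene in a cell). Seurat and the build GRCm39 are named in the submitters' processing notes. The aligner and annotation are not given in the sources used here. Limits on UMIs, genes and mitochondrial share were applied here, since barcodes outside them were deposited. Cells were grouped by hormone share, as the report gives it. Non-endocrine cells had at least 3 UMIs and 0.5% of UMIs from endothelial, stromal, leukocyte and duct lists. No doublet caller was run.

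UMIs were summed per library and group and tested in edgeR 4.0.16 (TMM, filterByExpr, quasi-likelihood, library as block, R 4.3.3), a step tested on simulated data. Libraries pool animals, and library pairs groups because they come from one suspension. With library as a block, p-values measure how group differences vary among the 3 libraries, estimated over all 12 sums (6 residual degrees of freedom). They do not measure the spread between animals, nor the differences between libraries that the block removes. Genotype ratios used a prior count of 1. Intervals (95%) and the limit of 3 counts cover counting error only. The members, lists and alternatives were chosen with earlier results of these data known.

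Named genes were the 12 highest and 10 lowest (β) or 5 and 5 (δ, PP) among called genes of at least 50 CPM, the 8 highest and 8 lowest ratios to control 2 at 100 CPM or more, and the most abundant or most different list members. Genes without a common symbol were passed over, and a few genes are not reported here, though list counts include them. Any other gene was named after its values were seen. Sequence is from RefSeq (GRCm38.p6), matched by symbol.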

Additional observations from a re-analysis of the deposited data

Results flagged for a closer look

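Peptide YY was singled out because its ratio of the mutant libraries to control 2 had opposite signs in 2 cell types. In α cells the log2 ratio was -1.73 for mutant 1 and -1.57 for mutant 2, and in β cells it was 0.50 and 0.78. The difference between the cell types was not tested, since 1 control library was analysed. In β cells, Pyy was seen at 1000 UMIs in 28.9%, 29.5% and 8.59% of cells of mutant 1, mutant 2 and control 2, beside 16.3%, 25.5% and 17.1% of non-endocrine cells.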

How the results depend on the processing

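Counts of genes moved most with the library block, the depth of cells and the libraries used. In the fit with no replicate block, α cells had 370 genes higher and 399 lower than β cells, 134 and 186 against δ cells, and 18 and 11 against PP cells. With cells thinned to 1000 UMIs, which left 1592 genes tested, the counts were 363 and 405, 131 and 153, and 24 and 14. Without a filter on low counts, 1773 genes were lower than in β cells and 131 higher than in PP cells. Leaving out each library in turn gave 552 to 1544 genes higher and 582 to 1651 lower against β cells, 163 to 488 and 193 to 457 against δ cells, and 21 to 168 and 12 to 145 against PP cells. All these counts were highest without control 2, when 7227 genes were tested, and of the 1544 and 1651 genes against β cells, 961 and 1006 were also called with all libraries. They were lowest without mutant 2. With no replicate block, 10 ribosomal protein genes, 4 immediate early genes and 16 genes of the endoplasmic reticulum list differed from β cells.

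The α share rose to 15.0% in mutant 1 and 16.6% in mutant 2 with Gcg at least 1%. Genes higher in α cells of both mutant libraries by size numbered 171 with CPM of all UMIs, 885 after thinning to 1000 UMIs (161 lower), 612 at a mean of 20 CPM and 124 at 100 CPM, where 357 and 80 were lower. With a single mutant library, the counts were 318 to 450 higher and 194 to 243 lower, the highest with mutant 1 alone. Thinned to 500 UMIs, 5 of 15 α markers were seen more often in α than in β cells of control 2, beside 10 at 1000 UMIs and 10 with no thinning. At 500 UMIs the count was 11 in mutant 1 and 12 in mutant 2. The cause of these shifts was not tested, apart from the number of genes tested.

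Directions turned for Gc between α and β cells, to -0.57 with no replicate block and over a range of -0.23 to 0.995 with 1 library left out, and for Slc30a8, over -0.27 to 0.087. The positive Gc value and the negative Slc30a8 value came without control 2 and were called. Pyy between α and δ cells turned to -0.045 and Plvap in α cells of the mutant libraries to 0.057 after thinning. The first was not called, and the second had passed the size with all UMIs, without a test. Of 1657 comparisons of single genes between α and β cells under an alternative, 140 lost their call, 53 of them with no replicate block, 30 without mutant 2 and 22 without mutant 1, while 4 gained one. No paired comparison of mutant and control libraries was made, because control replicate 1 was not analysed. Mutant and control share only replicate number 2, and a shared number does not state a pairing. Depth limits the α sum of control 2, where 3 counts correspond to 14.5 CPM.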
